A study of Mus musculus with 4 samples.

Results

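The AP-1 transcription factor genes examined here are the 4 Fos genes (Fos, Fosb, Fosl1 and Fosl2), the 3 Jun genes (Jun, Junb and Jund) and Atf3. They were taken by symbol from the count table, which holds 23282 distinct features, and each of the 8 symbols had 1 row. All 8 passed the filter on low counts and were among the 13285 genes tested. The samples were C2C12 myotubes, multinucleated cells formed by a female mouse skeletal muscle line, so every library came from 1 line. The cells were steroid-deprived and then held for 2 h with vehicle or with 1 µM dexamethasone, a synthetic glucocorticoid. RNA that stayed attached to the chromatin of washed, lysed nuclei was sequenced as a readout of nascent transcription. The labels name both a total RNA and an mRNA library kit, and mRNA selection would favour finished transcripts over nascent ones, so how far the counts read nascent RNA is not settled. There were 2 libraries per group. Nothing in the labels says that they came from separate cultures, so p-values measure the spread between these libraries, which may be technical.

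AP-1 is a dimer of basic leucine zipper proteins. Jun proteins pair with themselves or with a Fos protein, while Fos proteins need a Jun partner to bind DNA. Several of these genes are immediate-early genes, switched on within minutes by growth factors, stretch or stress through serum response factor, CREB and the MAP kinases. The ligand-bound glucocorticoid receptor is known to repress AP-1-driven genes by binding to AP-1 at DNA, and in muscle cells high Jun or Fos activity is known to hold back differentiation. The comparison asks whether the genes of the dimer themselves changed their transcription after 2 h of dexamethasone.

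Promoter sequence is shown for Jun, Fos and Junb, because Jun was the only member whose libraries did not overlap between the groups, and Fos and Junb stand for the other subunit and for a second Jun gene. Promoters of 7 of the 8 members were matched by symbol in the RefSeq table, whose build is GRCm38.p6. The counts were made on mm9 per the submitters' processing notes, so the positions belong to the RefSeq table and not to the counts. Each line gives the 250 bases before the RefSeq start site, 5′ to 3′ on the gene's own strand: chr4:95052223-95052472 on the minus strand for Jun, chr12:85473640-85473889 on the plus strand for Fos, and chr8:84978749-84978998 on the minus strand for Junb. Capitals mark the matched motif.
Jun: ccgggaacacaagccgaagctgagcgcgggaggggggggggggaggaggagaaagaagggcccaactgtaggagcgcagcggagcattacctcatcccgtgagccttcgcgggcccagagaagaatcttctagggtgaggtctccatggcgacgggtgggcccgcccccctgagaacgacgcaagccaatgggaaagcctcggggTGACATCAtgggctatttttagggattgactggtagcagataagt
Fos: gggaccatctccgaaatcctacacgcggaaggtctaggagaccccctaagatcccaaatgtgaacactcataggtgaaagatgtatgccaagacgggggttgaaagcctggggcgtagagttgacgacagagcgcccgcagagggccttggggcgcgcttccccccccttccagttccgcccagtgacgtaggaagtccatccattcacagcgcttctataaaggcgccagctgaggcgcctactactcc
Junb: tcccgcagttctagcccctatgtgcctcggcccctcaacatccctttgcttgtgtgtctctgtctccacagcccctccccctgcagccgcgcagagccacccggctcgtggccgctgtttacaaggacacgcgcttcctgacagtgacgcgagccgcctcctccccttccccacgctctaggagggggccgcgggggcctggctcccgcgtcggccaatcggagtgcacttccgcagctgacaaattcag

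The windows of the 7 matched members were searched on both strands for 5 motifs. These were TGANTCA (the classical AP-1 site, or TPA response element), TGACGTCA (the cAMP response element), TGACATCA (the variant known from the Jun promoter, where Jun proteins act on their own gene), the CArG box of serum response factor, and the full palindromic glucocorticoid response element. The only match was TGACATCA in Jun, from 45 to 38 bases before the start site. Over 32851 RefSeq promoter windows of the same length, 2.93% held TGACATCA, 6.75% TGANTCA, 1.55% TGACGTCA, 1.47% a CArG box and 0.0365% the glucocorticoid response element. The windows carry a limit: those of Atf3, Fosb and Fosl2 overlap an annotated GENCODE exon of the same gene, and the bases just after the RefSeq start of Junb and Jund were not found in a GENCODE transcript. The Junb window above is therefore 250 bases before a start that the 2 annotations do not share. A match is a string of letters and was not read as a bound site. A window without one says nothing of sites farther away, or of sites inside it whose letters differ from those searched.

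More genes separated the libraries by replicate number than by treatment, as the shares given beside the members' counts show. Totals were 19631435 and 35116830 counts for vehicle and 32463331 and 88596296 for dexamethasone, replicate 1 first. The treatment itself was visible: Fkbp5, a known glucocorticoid target, had 21.5 and 21.6 CPM (a gene's counts relative to the total of its library, with totals scaled by TMM) with vehicle against 1019 and 697 with dexamethasone. It was 1 of 5 genes called over all genes (edgeR quasi-likelihood test, Benjamini-Hochberg adjusted p 0.0429), while the glucocorticoid targets Per1 and Tsc22d3, at log2 fold changes of 2.53 and 2.72, were not (adjusted p 0.117 and 0.213). Both Per1 and Tsc22d3 were called once a term for replicate number was added to the fit (edgeR adjusted p 2.19e-05 for each). All 8 myotube markers were detected, yet their summed level was 123700 and 43220 CPM in vehicle 1 and 2 and 119300 and 42180 in dexamethasone 1 and 2. Most of each sum was Ttn, at 118100 and 41070 CPM with vehicle and 113400 and 39940 CPM with dexamethasone. Of the 8 markers 7 were lower in both replicate 2 libraries, by unequal amounts. Mymk was nearly even, at 176 and 173 CPM in vehicle 1 and 2. Among markers of other cells, the macrophage genes Ptprc, Csf1r and Adgre1 had too few counts to test, and the 5 proliferating myoblast markers summed to between 38.3 and 56.9 CPM. The 3 tested fibroblast markers summed to between 32.0 and 56.6 CPM, and Tcf21 was listed at 0 and not read as silent. Of the myotube markers, Mymk and Myog had the highest log2 fold changes of dexamethasone against vehicle, 0.25 and 0.19, and Ckm and Ttn the lowest, both -0.05. Of the myoblast markers, Myf5 and Ccnb1 were the highest at 0.30 and 0.20, and Mki67 (0.07) and Pax7 the lowest. Some of these markers separated the groups. Pax7 had 32.0 and 39.0 CPM with vehicle against 17.95 and 22.87 CPM with dexamethasone (log2 fold change -0.80, SE 0.201, edgeR adjusted p 0.456). Col1a1 had 24.3 and 47.4 CPM against 19.9 and 16.8 CPM (adjusted p 0.823), and Pdgfra had 6.12 and 4.296 CPM against 9.14 and 12.1 CPM (adjusted p 0.503) in the same edgeR fit. Dcn, the other tested fibroblast marker, had 5.26 and 4.875 CPM against 3.97 and 3.17 CPM (edgeR adjusted p 0.9999). With a term for replicate number added, edgeR adjusted p-values were 0.000881 for Pax7, 0.0172 for Pdgfra, 0.0277 for Mymk, 0.0519 for Col1a1 and 0.0615 for Dcn. Their part in the members' values was not tested. The nuclear RNA Malat1 had 23970 to 34410 CPM in the 4 libraries. In bulk RNA of this kind, fewer cells of a type and less RNA per cell cannot be told apart.

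Among the Fos genes, Fosl2, which encodes Fra-2, had the most counts. Its level was 110 and 145 CPM in vehicle 1 and 2 and 95.6 and 128 CPM in dexamethasone 1 and 2. Each replicate 2 library exceeded each replicate 1 library, and the groups overlapped. Fosl2 held 93.4% of the counts of the 4 Fos genes in vehicle 1 (95% Wilson interval 92.3% to 94.4%), 95.4% in vehicle 2 (94.8% to 95.9%), 95.9% in dexamethasone 1 (95.1% to 96.6%) and 94.5% in dexamethasone 2 (94.1% to 94.9%). Its share was thus nearly even in the 4 libraries. The share is of counts and not per length, and Fosl2 is the longest of the 4 Fos genes by exons and by span. These intervals, like all intervals on a single library here, cover counting error only.

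Fos itself, the prototype immediate-early subunit, had 98 and 72 counts in vehicle 1 and 2 and 87 and 278 in dexamethasone 1 and 2. That is 5.26 and 1.90 CPM with vehicle against 2.90 and 2.98 CPM with dexamethasone. The 2 vehicle libraries were the highest and the lowest of all, and both dexamethasone libraries lay between them. The exact 95% Poisson interval was 4.27 to 6.41 CPM in vehicle 1 and 1.49 to 2.39 CPM in vehicle 2, so the gap between the vehicle libraries was larger than counting error. Fos was also the member with the lowest value of replicate 2 against replicate 1 in vehicle, at -1.45 on the log2 scale, against 0.04 in dexamethasone.

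Fosb, whose product also occurs as a short form without the transactivating end, had the fewest counts of the members over the 4 libraries, with 11 and 71 counts with vehicle and 15 and 185 with dexamethasone. Its level was 0.590 and 1.87 CPM with vehicle against 0.500 and 1.98 CPM with dexamethasone. The level followed the replicate number and not the group, and the Poisson intervals of replicate 1 (0.295 to 1.06 and 0.280 to 0.825 CPM) stayed below those of replicate 2 (1.46 to 2.36 and 1.71 to 2.29 CPM).

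Fosl1, which encodes Fra-1, a Fos protein linked to invasive growth, had 35 and 125 counts with vehicle and 20 and 233 with dexamethasone. Its level was 1.88 and 3.29 CPM with vehicle against 0.667 and 2.50 CPM with dexamethasone. Dexamethasone 1 was the lowest library by a wide margin, with a Poisson interval of 0.408 to 1.03 CPM, but dexamethasone 2 lay between the vehicle libraries. In the GRCm38 annotation Fosl1 overlaps Ccdc85b on the other strand, and whether counting used strand is not given in the sources used here, so reads in the shared part cannot be told apart.

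Among the Jun genes, Jun was the steadiest. It had 517 and 1125 counts with vehicle and 941 and 3262 with dexamethasone, or 27.7 and 29.6 CPM against 31.4 and 34.9 CPM. Each dexamethasone library exceeded each vehicle library. Of all tested genes 15.0% were higher in this way, and 1 of the 8 members was, so the count for the members is near the background. None of the 8 lay lower in both dexamethasone libraries, against 12.9% of all genes. Jun has a single exon and is overlapped on the other strand by the noncoding gene Junos, which has no row in the count table.

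Junb, the Jun gene known as a restraint on Jun activity and as a promoter of muscle mass, had 14.6 and 27.4 CPM with vehicle against 14.4 and 23.6 CPM with dexamethasone. Jund, the Jun gene typical of resting cells, had 3.86 and 7.33 CPM against 3.84 and 6.93 CPM. In both genes the replicate 1 libraries of the 2 groups were close to each other, and the replicate 2 libraries were clearly higher than either. Junb overlaps Prdx2 on the other strand in the annotation, and Jund overlaps a noncoding antisense gene. As a share of the Jun family's counts, Jun made up 60.0% in vehicle 1 (95% Wilson interval 56.7% to 63.3%), 46.1% in vehicle 2 (44.1% to 48.1%), 63.2% in dexamethasone 1 (60.8% to 65.7%) and 53.4% in dexamethasone 2 (52.1% to 54.7%). Jun's share was lower in both replicate 2 libraries, where Junb reached 42.5% in vehicle and 36.0% in dexamethasone.

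Atf3, a stress-induced factor that pairs with Jun proteins and represses as a homodimer, had 179 and 419 counts with vehicle and 309 and 1070 with dexamethasone. Its level was 9.60 and 11.04 CPM with vehicle against 10.3 and 11.5 CPM with dexamethasone, the smallest ratio of highest to lowest library among the members. The groups overlapped.

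**Figure D1:**
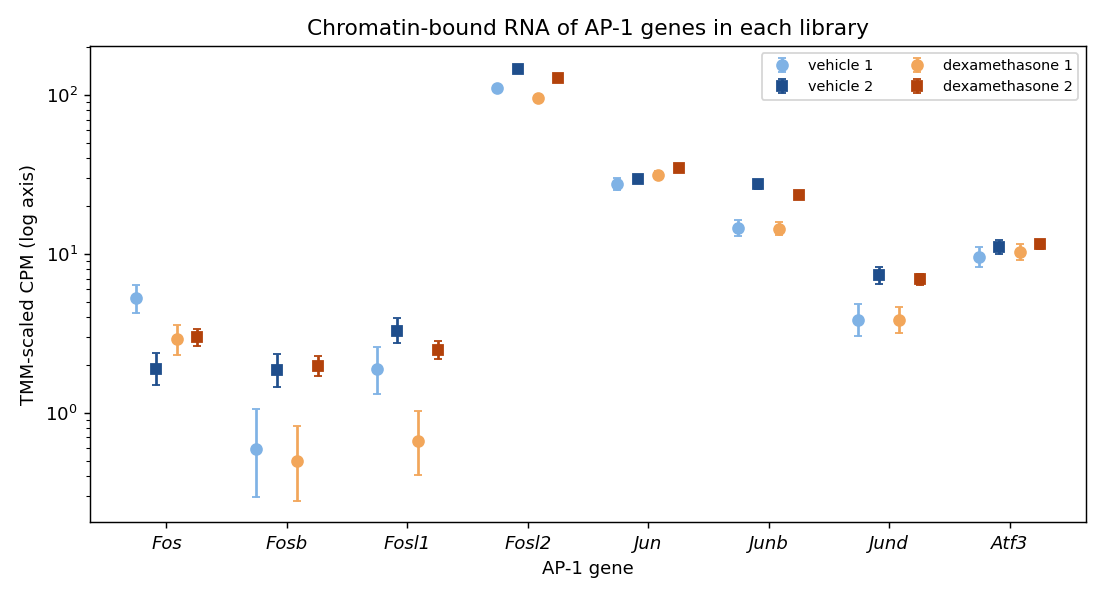
TMM-scaled CPM (log axis) of the 8 AP-1 genes in each of the 4 libraries; blue is vehicle, orange is dexamethasone, circles are replicate 1, squares are replicate 2, and bars are exact 95% Poisson intervals for counting error. Fosl2 has the highest CPM, not adjusted for length, at 95.6 to 145, and in Fosb, Junb and Jund the circles of both groups lie together below the squares.

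The shares above are of counts, and a longer gene collects more reads, so the order of levels between genes was read per length. Whether the counts cover exons alone or introns too is not given in the sources used here, so CPM was divided both by the annotated exon length and by the whole gene span in GRCm38. Per kilobase of exon the order was Fosl2 (mean over the 4 libraries 12.4 CPM per kb), Jun (9.70), Junb (8.69), Atf3 (4.92), Jund (3.29), Fos (1.39), Fosl1 (1.03) and Fosb (0.198). On this scale the libraries of Fosl2 and Jun overlapped (9.87 to 15.0 and 8.70 to 10.9 CPM per kb), as did those of Jun and Junb and those of Fos and Fosl1, so those neighbours did not differ beyond the spread over libraries. Within each library, though, Fosl2 exceeded Jun on this scale, least in dexamethasone 1 (9.87 against 9.84 CPM per kb of exon). Per kilobase of gene span Jun came first (9.70), followed by Fosl2 (5.43), Junb (4.72), Jund (3.29), Fos (0.963), Fosl1 (0.248), Atf3 (0.222) and Fosb (0.168). Here Jun, at 8.70 to 10.9 CPM per kb of span, lay above Fosl2, at 4.34 to 6.58, in every library. The libraries of Fosl2 and Junb overlapped on this scale, as did those of Junb and Jund, of Fosl1 and Atf3, and of Atf3 and Fosb, though Fosl2, Junb and Jund kept this order within each library. Atf3 moved most between the scales, from rank 4 to rank 7, because its exons make up 4.51% of a span of 47744 bases. By the mean on both scales Fosl2, Jun and Junb were the first 3 and Fosb was last. On gene span Fosb lay above Atf3 in both replicate 2 libraries.

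**Figure D2:**
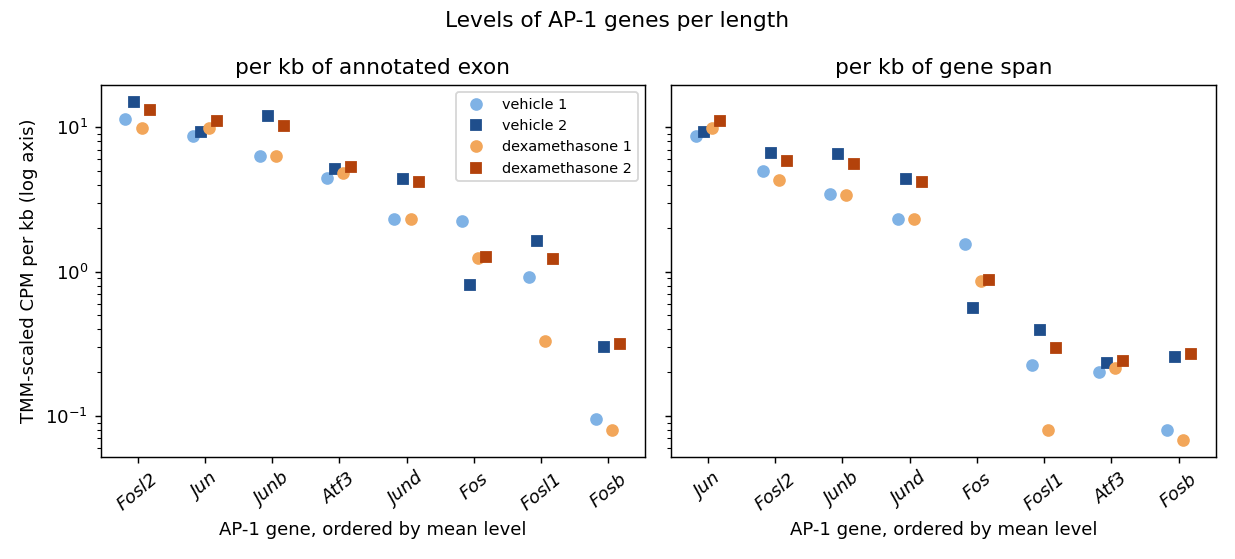
TMM-scaled CPM per kilobase (log axis) of each AP-1 gene in the 4 libraries, divided by annotated exon length (left) or by gene span (right), with genes ordered by their mean. Fosl2, Jun and Junb lead on both scales, and Atf3 drops from rank 4 to rank 7 on the right.

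None of the 8 genes passed the threshold between dexamethasone and vehicle (edgeR quasi-likelihood test over 13285 genes, two-sided, Benjamini-Hochberg adjusted p 0.9999 for each member). At an unadjusted p under 0.05 the count for the members was 0 as well, and DESeq2's Wald test, edgeR's likelihood ratio test and limma-voom also called 0 of the 8. Of all tested genes 0.0376% were called, and 5.78% had an unadjusted p under 0.05, so with 8 genes a count of 0 is near the background on either measure. With a term for replicate number added to the fit (a replicate block), 0 of the 8 were called, against 12.7% of all genes, and 3 of the 8 had an unadjusted p under 0.05, against 25.7%. Fitted log2 fold changes were above 0 in 3 members and below 0 in 5, with a median of -0.10, against -0.0016 over all tested genes. The median size regardless of sign was 0.17 for the members and 0.13 for all tested genes.

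The precision differed widely between members and sets what size of change this fit could show. Jun had a log2 fold change of 0.21 (SE 0.144, 95% interval -0.17 to 0.59), which is 1.16-fold with an interval of 0.888 to 1.51. Atf3 had 0.08 (SE 0.182, interval -0.41 to 0.56). Fosl2 had -0.19 (SE 0.222, interval -0.78 to 0.40), or 0.876-fold with an interval of 0.583 to 1.32. For these 3 genes a 2-fold change in either direction lay outside the interval. The remaining members had wider intervals that each include a 2-fold change in at least 1 direction. Junb was at -0.15 (SE 0.402, interval -1.21 to 0.92) and Jund at -0.06 (SE 0.452, interval -1.26 to 1.14). Fos was at -0.26 (SE 0.532, interval -1.67 to 1.15), Fosl1 at -0.68 (SE 0.700, interval -2.54 to 1.17) and Fosb at 0.01 (SE 0.849, interval -2.24 to 2.26). The replicate block, which leaves 1 residual degree of freedom, gave narrower intervals: -0.34 to 0.06 for Junb, -0.34 to 0.23 for Jund, -0.88 to 0.76 for Fos, -0.62 to 0.63 for Fosb and -1.40 to -0.05 for Fosl1. Under the block a 2-fold change lay outside the interval of each of these genes except Fosl1. With 1 residual degree of freedom, though, these intervals lean mostly on spread that the fit borrows from other genes. For Fos the differences within replicate 1 and replicate 2 were -0.85 and 0.64, so its interval was not read as excluding a 2-fold change.

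Differences within each replicate number, with 1 library per group and so no test, separated the members further. Jun was higher with dexamethasone by 0.18 on the log2 scale in replicate 1 and by 0.24 in replicate 2, and Fosl2 was lower in both, at -0.21 and -0.18. Fosl1 was lower in both, at -1.43 and -0.39, with few counts in dexamethasone 1. Fos went in opposite directions, at -0.85 in replicate 1 and 0.64 in replicate 2. Fosb did so as well, at -0.22 and 0.08. Junb (-0.02 and -0.22), Jund (-0.01 and -0.08) and Atf3 (0.10 and 0.05) had small differences of 1 sign. In all, 6 of the 8 members had the same sign in both replicate numbers, against 68.1% of all tested genes.

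**Figure D3:**
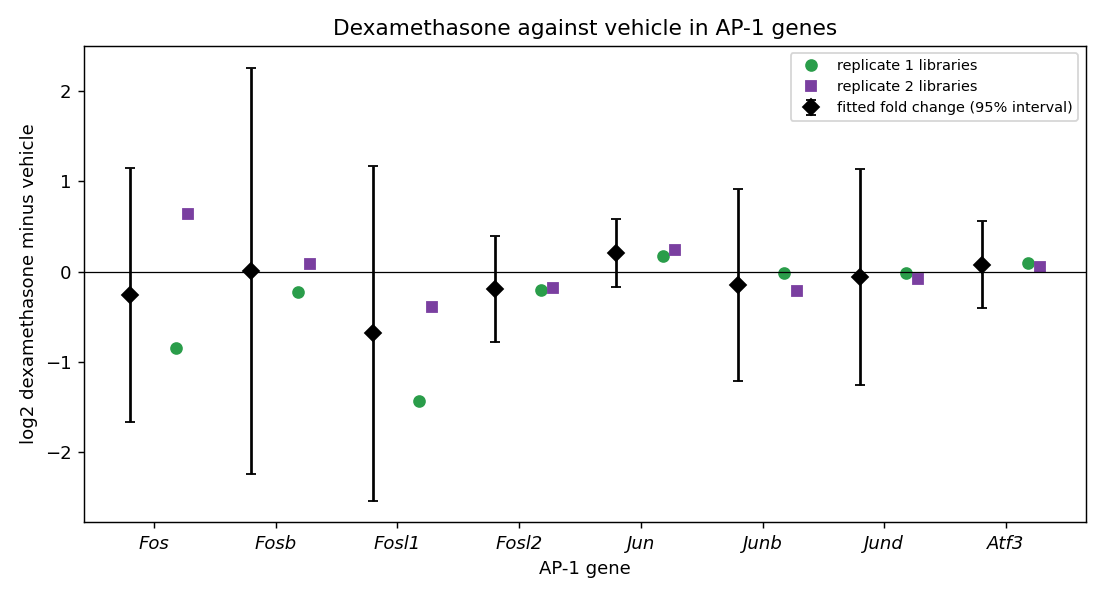
Log2 difference of dexamethasone against vehicle for each AP-1 gene; diamonds with bars are the fitted fold change and its 95% interval over all 4 libraries, green circles the difference between the replicate 1 libraries and purple squares that between the replicate 2 libraries. Every interval spans 0, and the circle and square of Fos lie on opposite sides of it.

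Summed over genes, the Jun family had 46.2 and 64.4 CPM with vehicle and 49.6 and 65.4 CPM with dexamethasone, and the Fos family 118 and 152 CPM against 99.7 and 135 CPM. The ratio of the Jun sum to the Fos sum was 0.392 and 0.423 with vehicle and 0.498 and 0.484 with dexamethasone. Both dexamethasone libraries were above both vehicle libraries in this ratio, which rests mainly on Jun and Fosl2. The sums are of CPM and not per length, so the ratio compares libraries with each other and not the level of a family with that of the other. With 2 libraries against 2 the smallest two-sided exact permutation p is 0.333, so the ratio is given as a description.

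Replicate number, unlike treatment, set most members' libraries apart. In 6 of the 8 members (Fosb, Fosl1, Fosl2, Junb, Jund and Atf3) each replicate 2 library exceeded each replicate 1 library, against 32.1% of all tested genes, and in none did they lie below, against 31.8%. The mean log2 difference of replicate 2 from replicate 1 over the 2 groups was 1.74 for Fosb, 1.32 for Fosl1, 0.88 for Jund, 0.81 for Junb, 0.41 for Fosl2 and 0.18 for Atf3. Jun was at 0.13 and Fos at -0.71. The median of the 8 was 0.61, against 0.01 over all tested genes. In the same libraries 7 of the 8 myotube markers, Ttn and Myh3 among them, were lower in both replicate 2 libraries than in both replicate 1 libraries. Their part in the members' values was not tested. Of 11 heat shock and growth arrest genes, 3 were higher and 4 lower in both replicate 2 libraries.

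**Figure D4:**
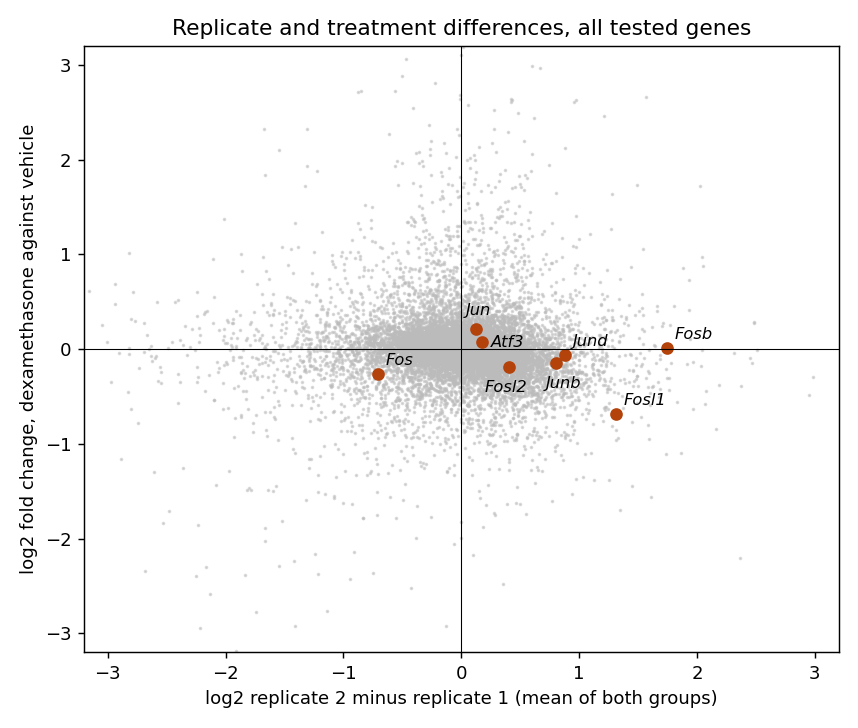
Each grey point is 1 of 13285 tested genes (46 lie beyond the axes) and each labelled point an AP-1 gene; the horizontal axis is the log2 difference of replicate 2 from replicate 1, the vertical axis the log2 fold change of dexamethasone against vehicle. The AP-1 genes spread along the horizontal axis from -0.71 (Fos) to 1.74 (Fosb) and stay within -0.68 to 0.21 on the vertical one.

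The genes around AP-1 were read from lists of its partners, its upstream kinases and factors, its protein modifiers and its targets, all in the same fit. No gene of these lists passed the threshold over all genes without a replicate term. The replicate block, under which 12.7% of all genes were called, changed that call for several, and those adjusted p-values are given beside them ("under the block"). Of 19 tested kinases upstream of AP-1, 1 had an unadjusted p under 0.05, near the 5.78% of all genes, and the median log2 fold change was 0.00. That gene was Rps6ka5, which encodes MSK1, a nuclear kinase that acts on CREB and histone H3 at immediate-early genes. It had 79.9 and 75.0 CPM with vehicle against 124 and 110 CPM with dexamethasone, a log2 fold change of 0.60 (SE 0.131, edgeR adjusted p 0.350, under the block 0.00154), and the groups did not overlap. In 4 of the 19 kinases both dexamethasone libraries were above both vehicle libraries, against 15.0% of all genes. Both were below in 3, against 12.9%. Mapk14, the p38-alpha kinase, was at 0.29 (SE 0.123, edgeR adjusted p under the block 0.0357). Under the block 2 kinases were called higher and 1 lower. The lowest were Mapk10, at -2.30 (SE 1.24) on 71 counts or fewer in every library, and Map3k5 at -0.37 (SE 0.231). Map2k1 was listed at 0 in all 4 libraries and was not read as silent.

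Of 12 tested factors that act on Fos and Jun promoters, 1 had an unadjusted p under 0.05, against 5.78% of all genes, and the median was -0.04. This was Elk3, a ternary complex factor that represses Fos through serum response factor, with 31.9 and 45.8 CPM against 19.0 and 26.6 CPM and a log2 fold change of -0.76 (SE 0.270, edgeR adjusted p 0.796, under the block 0.000909). Each dexamethasone library was lower than each vehicle library, which held for 1 of the 12 factors, against 12.9% of all genes. Mef2c was at -0.22 (SE 0.414), and Mrtfa and Stat3 were the highest at 0.30 (SE 0.223) and 0.22 (SE 0.200), with edgeR adjusted p-values under the block of 0.0133 and 0.0463. Under the block 2 of these factors were called higher and 1 lower. Elk1 was listed at 0 in every library and, like Map2k1, was not read as silent. The 23 tested rows of other basic leucine zipper genes, in which Creb5 has 2 rows, had a median of -0.03. Of these rows 0 had an unadjusted p under 0.05, against 5.78% of all genes. They ran from Ddit3 at -0.38 (SE 0.240) and Batf at -0.32 (SE 0.682) to 1 row of Creb5 at 0.31 (SE 0.234) and Maff at 0.35 (SE 0.249). Under the block that row of Creb5 was called higher (edgeR adjusted p 0.0299) and Ddit3 lower (0.045).

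Among 14 genes listed as modifiers and corepressors of Fos and Jun proteins the median was 0.01. A place in this list, as for Jazf1, does not show that a gene acts on Fos or Jun proteins. Nr3c1, the glucocorticoid receptor, was the lowest at -1.03 (SE 0.251, edgeR adjusted p 0.430, under the block 0.000236), with 238 and 180 CPM with vehicle against 121 and 83.8 CPM with dexamethasone, followed by Jazf1 at -0.38 (SE 0.200). Fhl2, a LIM-domain coactivator that binds Fos and Jun proteins, was at 0.49 (SE 0.169, edgeR adjusted p 0.781, under the block 0.0029), with 106 and 131 CPM against 153 and 178 CPM. Trib1 was at 0.60 (SE 0.453). Under the block Trib1 was called higher (edgeR adjusted p 0.0278) and Jazf1 lower (0.0263), so 2 of the 14 were called in each direction. The groups did not overlap in 2 genes on the higher side, against 15.0% of all genes, and in 2 on the lower, against 12.9%; Fhl2 was among the first and Nr3c1 and Jazf1 were the second.

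The list of textbook AP-1 target genes had a median log2 fold change of -0.23 over 17 tested genes, with 5 above 0 and 12 below. An unadjusted p under 0.05 was reached by 2 genes on the higher side and 2 on the lower, 4 of 17 against 5.78% of all genes, but none passed over all genes. Edn1, the gene of endothelin, was the highest: 0.751 and 1.74 CPM with vehicle against 4.57 and 4.40 CPM with dexamethasone, a log2 fold change of 1.80 (SE 0.450, edgeR adjusted p 0.449, under the block 0.0101). Spp1, the gene of osteopontin, was at 1.07 (SE 0.674, edgeR adjusted p under the block 0.006975), with overlapping groups. At the other end, Tgfb1 had 7.56 and 11.7 CPM against 4.57 and 5.74 CPM, a log2 fold change of -0.90 (SE 0.293, edgeR adjusted p 0.715, under the block 0.00458), and Areg was at -0.84 (SE 0.374). In Edn1, Tgfb1 and Areg the groups did not overlap. Over the 17 genes they did not overlap in 2 on the higher side, against 15.0% of all genes. On the lower side they did not overlap in 5, against 12.9%. Under the block 3 genes of the list were called higher and 4 lower, against 12.7% of all genes called in either direction. Of the other members of this list, Mmp3, Mmp10 and Timp1 were listed at 0 in all libraries and were not read as silent.

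Other immediate-early genes, which share stimuli with Fos and Jun, had a median of 0.21 over 19 genes. In 8 of the 19 both dexamethasone libraries were above both vehicle libraries, against 15.0% of all genes. In 2 they were below, against 12.9%. The highest was Ccn2, a matricellular gene, with 3.27 and 6.33 CPM against 35.1 and 42.1 CPM and a log2 fold change of 2.99 (SE 0.362, edgeR adjusted p 0.126, under the block 0.000141). Nr4a3 followed at 1.02 (SE 0.527, edgeR adjusted p under the block 0.0228). The lowest were Egr3 at -0.71 (SE 0.722) and Klf4 at -0.43 (SE 0.278), with edgeR adjusted p-values under the block of 0.0149 and 0.036. Both were higher in the replicate 2 libraries of either group, as most AP-1 genes were, but the list as a whole was not. Of the 19 genes 6 were higher in both replicate 2 libraries, against 32.1% of all genes. Lower in both were 2, Nr4a3 among them, against 31.8%. Under the block 7 of the 19 were called higher and 2 lower, against 12.7% of all genes and 0 of the 8 AP-1 genes. The difference between these lists and the AP-1 genes was not tested. Of the 11 heat shock and growth arrest genes, 0 had an unadjusted p under 0.05, against 5.78% of all genes, and the median was -0.01. Gadd45g at 0.53 (SE 0.207) and Gadd45a at 0.42 (SE 0.298) were the highest. Hspa1a at -0.46 (SE 0.469) and Gadd45b at -0.40 (SE 0.368) were the lowest. Under the block 3 of the 11 were called higher and 0 lower, against 12.7% of all genes called in either direction. Gadd45a (edgeR adjusted p 0.0123) and Gadd45g (0.0185) were among the 3.

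**Figure D5:**
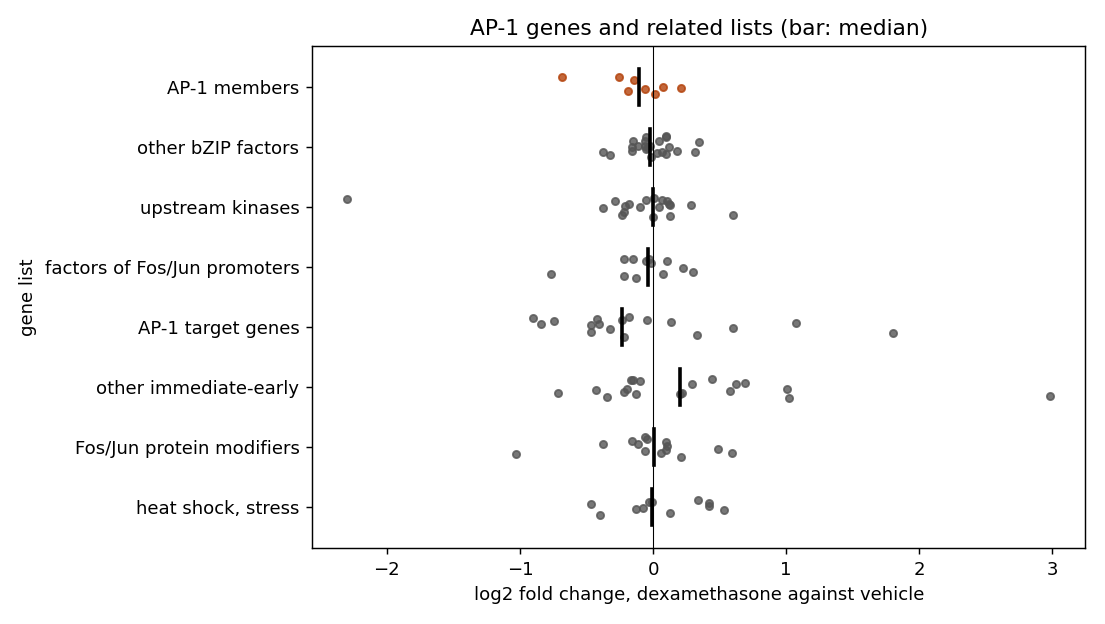
Log2 fold change of dexamethasone against vehicle for each tested gene of the AP-1 group (top, red) and of 7 related lists (grey), with a bar at each median. The AP-1 genes lie between -0.68 and 0.21, while the target and immediate-early lists hold single genes at 1.80 (Edn1) and 2.99 (Ccn2).

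Genes with the most similar pattern were sought by the distance between log2 CPM values over the 4 libraries, each gene centred on its own mean. For Fosl2, the member with the most counts, the nearest were Gtf2i (distance 0.018), Mtmr11 (0.020) and Ankrd52 (0.024), and 131 tested genes lay within 0.1. Gtf2i had 158 and 208 CPM with vehicle and 139 and 183 CPM with dexamethasone. For Fosl1, the member with the fold change farthest from 0, the nearest were Gm12695 (0.182), Il23r (0.247) and Tas1r2 (0.306), all of them low in every library, and none lay within 0.1. A pattern over 4 libraries is shared by many genes in the first case and rests on few counts in the second.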

How the data were processed

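The authors deposited unnormalized read counts for each gene in 4 libraries. The submitters' processing notes name mm9, TopHat2 2.0.13, SAMtools 1.1, HTSeq 0.6.1 and DESeq2 1.18.1. Annotation, strand setting and counted feature are not given in the sources used here. The labels name a TruSeq stranded total RNA kit and, in another sentence, a stranded mRNA kit; which was used is open. Repeated rows (51 of 23333) were used once. Genes were filtered with filterByExpr (minimum count 10, minimum total 15), scaled by TMM and tested with edgeR 4.0.16 (quasi-likelihood, group as the only term) in R 4.3.3. Values per library on the log2 scale carry a prior count of 2. The common biological coefficient of variation was 0.245 in this fit and 0.0552 with the replicate block. Alternatives used limma 3.58.1 and DESeq2 1.42.0. GENCODE M21 (GRCm38) gave exon lengths, spans and overlaps only. From each list with at least 4 tested genes the 2 highest and 2 lowest genes are named, with any gene past the threshold. Col1a1, Pdgfra, Dcn and Malat1, from shorter marker lists, were named after their values were seen. The members and lists were chosen with earlier results of these data known. The values of 1 gene of the target list are not reported here, and it was left out of that list's counts and median.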

Additional observations from a re-analysis of the deposited data

How the results depend on the processing

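With each alternative taken singly, 0 of the 8 AP-1 genes passed the threshold (an adjusted p under 0.05 unless stated). The alternatives were 3 other scalings, 2 other filters, 3 other tests, thinning to the smallest total, an adjusted p under 0.1 and the replicate block. The limit of 0.1 was tried only without the block, where edgeR adjusted p was 0.9999 for each member, so none could pass. Block and 0.1 together would have passed Fosl2 and Jun. How many of all genes would then pass was not counted. Single libraries were also left out in turn, and those fold changes are given below. No label ties a replicate number to a common day or batch, and 2 pairs cannot establish it, although the gap between replicates 1 and 2 in vehicle correlated across genes with that in dexamethasone (r = 0.734). A replicate block raised the calls over all genes to 1681 (913 higher, 768 lower; 12.7%) against 5 without. No member was called under the block, where Fosl2 (-0.19, edgeR adjusted p 0.0765), Jun (0.21, 0.0995) and Fosl1 (-0.72, 0.168) had an unadjusted p under 0.05, as did 25.7% of all genes. The count over all genes was 23 with no filter beyond 1 count, 289 with DESeq2's Wald test, 288 with edgeR's likelihood ratio test and 0 with limma-voom (540.0 higher, 231 lower with an unadjusted p under 0.05). It ran from 4 to 193 when single libraries were left out, highest without vehicle replicate 2. In those fits the lone library is assumed to vary like the other group.

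Directions near 0 did not hold. Fosb was at -0.0019 with DESeq2 size factors, -0.012 with upper quartile scaling, -0.015 with library size only and -0.0037 with DESeq2's Wald test. Fos was at 0.0462 with limma-voom, and Jund was at 0.0846 after thinning, a single random draw that moved Fosb to 0.14. Of 80 such refits of single members 74 kept their direction and side of the threshold. The cause was not tested. Leaving out single libraries gave -0.83 to 0.63 for Fos, -1.32 to 1.13 for Fosb, -1.96 to -0.06 for Fosl1, -0.42 to 0.0288 for Fosl2, 0.13 to 0.29 for Jun, -0.55 to 0.39 for Junb, -0.56 to 0.50 for Jund and -0.0187 to 0.19 for Atf3. Only Jun and Fosl1 kept their sign in all 4 of these fits. Fosb and Fosl1 had 11 to 35 counts in the replicate 1 libraries.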
